A study of Mus musculus with 16 samples.

Results

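Vitamin D signalling and the uptake of calcium and phosphate were followed through 7 genes in the epithelium of the mouse small intestine: Vdr, Trpv6, S100g, Cyp24a1, Atp2b1, Slc34a2 and Slc20a1. They were chosen by name, as the receptor, channel, calcium-binding protein, hormone-degrading enzyme, calcium pump and phosphate cotransporters of this pathway, and are 7 of the 24421 genes in the count files. RNA was sequenced in bulk from the epithelium that EDTA freed from 1 piece of jejunum and 1 of ileum of wild-type C57BL6/J mice. There were 4 mice at postnatal day 6 (P6), before weaning, and 4 at P36, after weaning, with 2 females (replicates 1 and 2) and 2 males (replicates 3 and 4) at each age. Both segments came from each mouse, which gave 16 libraries in 4 groups of 4, and a replicate number within an age marks 1 mouse. At P6 the sample titles of replicates 1 and 3 share a number, and those of replicates 2 and 4 share another. The titles do not say what these numbers mark, and no fit included them. All 16 libraries are labelled as wild type, and the labels name no treatment.

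In the intestine the active form of vitamin D binds the nuclear receptor Vdr, which pairs with a retinoid X receptor on DNA and raises transcription of the genes of active calcium uptake. Calcium then crosses the enterocyte through the apical channel Trpv6, is carried through the cytosol by the calcium-binding protein S100g (calbindin-D9k), and leaves through the basolateral calcium pump Atp2b1 (PMCA1). Phosphate enters mainly through the apical sodium-phosphate cotransporter Slc34a2 (NaPi-IIb), whereas Slc20a1 (PiT-1) is a widely expressed cotransporter of another family, and Cyp24a1 is the hydroxylase that degrades vitamin D metabolites.

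The 250 bases before the RefSeq start site (GRCm38.p6) are shown for the receptor and for the apical channel and cytosolic binding protein that act under it, because Vdr and S100g moved most with age among the tested genes, in opposite directions, and Trpv6 was detected only at P6. Matches to AGGTCA, a half-site for nuclear receptors, and to GGGCGG, a GC box, are in capitals on either strand.
Vdr, chr15:97908297-97908546, minus strand: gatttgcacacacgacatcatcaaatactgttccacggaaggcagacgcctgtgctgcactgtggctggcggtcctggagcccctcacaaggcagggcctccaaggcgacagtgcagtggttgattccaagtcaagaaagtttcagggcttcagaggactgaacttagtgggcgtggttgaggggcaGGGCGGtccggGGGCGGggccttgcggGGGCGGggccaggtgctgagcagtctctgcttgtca
Trpv6, chr6:41636406-41636655, minus strand: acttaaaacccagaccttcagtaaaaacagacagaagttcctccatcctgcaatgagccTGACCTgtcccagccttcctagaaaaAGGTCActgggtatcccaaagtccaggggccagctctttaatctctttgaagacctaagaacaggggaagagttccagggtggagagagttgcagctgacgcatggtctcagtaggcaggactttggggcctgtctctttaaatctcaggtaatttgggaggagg
S100g, chrX:162964600-162964849, minus strand: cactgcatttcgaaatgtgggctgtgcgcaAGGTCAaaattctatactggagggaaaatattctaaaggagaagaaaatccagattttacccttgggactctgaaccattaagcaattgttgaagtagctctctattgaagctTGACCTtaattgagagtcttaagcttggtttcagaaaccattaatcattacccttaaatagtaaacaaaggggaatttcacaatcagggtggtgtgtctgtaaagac
The Vdr stretch held 3 GC boxes and no half-site, at a GC content of 61.2%. Those of Trpv6 and S100g held 2 half-sites each and no GC box, at GC contents of 49.6% and 38.4%. In S100g the matches began 220 and 107 bases before the start site. Over all 32851 promoter entries of this length, 14.0% held the half-site and 32.7% the GC box. A direct repeat of this half-site with a spacer of 3 bases, the arrangement that Vdr and its partner are known to bind, was searched on both strands, and was in 0.00609% of all entries and in 0 of the 8 entries of these genes. RefSeq entries were matched for 6 of the 7 genes (8 entries), and none for Cyp24a1. A match is only a stretch of letters, and windows without one say nothing about binding.

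Library totals ranged from 12159237 to 25947276 counts. Levels are CPM, counts per 1000000 counts of a library scaled by TMM factors, and the 13429 genes that passed edgeR's filter on low counts were fitted together over the 16 libraries. Of the 7 genes, 5 passed this filter, and Trpv6 and Cyp24a1 did not. The epithelial markers Epcam, Vil1, Cdh1, Krt8, Krt20, Fabp2 and Slc5a1 summed to between 5082 and 26003 CPM per library, and none was at 0 in any group. At P6 these sums were 9267 to 11578 CPM in the jejunum and 5082 to 6444 CPM in the ileum. At P36 they were 20388 to 26003 CPM in the jejunum and 11704 to 25024 CPM in the ileum. The part of these sums in the differences between groups was not tested. The smooth muscle and fibroblast markers (8 genes) summed to 390 CPM in P6 ileum replicate 2 and to between 5.27 and 61.8 CPM in the other 15 libraries. By region at P6 they ranged from 5.27 to 17.3 CPM in the jejunum and from 20.0 to 390 CPM in the ileum. Immune cell markers (7 genes) ranged from 7.77 to 14.7 CPM and from 22.2 to 35.6 CPM in these groups. For neither list did the regions overlap at P6, but for both they did at P36. The part of these markers in the regional differences at P6 was not tested. P6 ileum replicate 4 correlated least with its group (mean Pearson's r of log2 CPM 0.902, against 0.943 to 0.954 for the other 3). P36 ileum replicates 1 and 3 also stood apart (0.966 and 0.964, against 0.976 and 0.978): the epithelial marker sum was 25024 CPM in replicate 1 and 11704 CPM in replicate 3. In fits without P6 ileum replicates 2 and 4, or without P36 ileum replicates 1 and 3, no call of Vdr, S100g, Atp2b1 or Slc20a1 changed in any of the 5 comparisons. Stem and dividing cell markers (5 genes) summed to 517 to 667 CPM at P6 and 851 to 1070 CPM at P36 in the jejunum. In the ileum they summed to 291 to 678 CPM at P6 and 695 to 1495 CPM at P36. Marker sums of Paneth, goblet and tuft cells were also higher at P36 in both regions. Those of enteroendocrine cells (3 genes) were lower at P36 in the ileum (103 to 122 CPM at P6, 51.0 to 76.6 CPM at P36). In the jejunum the enteroendocrine sums overlapped between the ages (115 to 144 CPM at P6, 122 to 168 CPM at P36). In the jejunum the Paneth cell markers (3 genes) summed to between 11.6 and 22.2 CPM at P6 and to between 3037 and 5997 CPM at P36, the goblet cell markers (4 genes) to between 1626 and 2224 and between 7188 and 8463 CPM, and the tuft cell markers (3 genes) to between 0.349 and 0.383 and between 12.5 and 15.8 CPM. In the ileum the same sums went from at most 52.2, 3915 and 2.84 CPM at P6 to at least 3891, 8125 and 6.73 CPM at P36, and no marker of these lists was at 0 in every library of a group. Their part in the differences with age was not tested.

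Between the regions at P6, 3 of the 5 tested genes passed the threshold (adjusted p below 0.05 in edgeR, with Benjamini-Hochberg adjustment over all tested genes), all 3 higher in the ileum: S100g, Atp2b1 and Vdr. Over all tested genes, 14.8% were called with more RNA in the P6 ileum, and 11.1% with more in the P6 jejunum. At P36, 2 of the 5 were called, S100g and Atp2b1, again higher in the ileum, against 7.80% of all genes higher in the ileum and 8.30% higher in the jejunum. With age in the jejunum, all 5 tested genes changed: Vdr rose, among 24.7% of all genes that were higher at P36, and S100g, Slc20a1, Slc34a2 and Atp2b1 fell, among 26.9% that were higher at P6. In the ileum, Vdr rose (25.5% of all genes) and S100g and Slc20a1 fell (30.1%), and Slc34a2 and Atp2b1 were not called. The regional difference itself differed between the ages for 2 of the 5, S100g and Vdr, against 8.69% of all genes.

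The study's own rule also asked for an absolute log2 fold change above 2. Under it, 0 of the 5 genes were called between the P6 regions (6.50% of all genes), 1, S100g, between the P36 regions (3.60%), 4 with age in the jejunum (16.4%) and 2, Vdr and S100g, with age in the ileum (16.4%). The median log2 fold change of the 5 tested genes was -0.66 (jejunum over ileum) at P6, -1.08 at P36, -2.21 (P36 over P6) in the jejunum and -0.48 in the ileum. Over all tested genes the medians were -0.05, -0.04, -0.01 and -0.03.

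**Figure D1:**
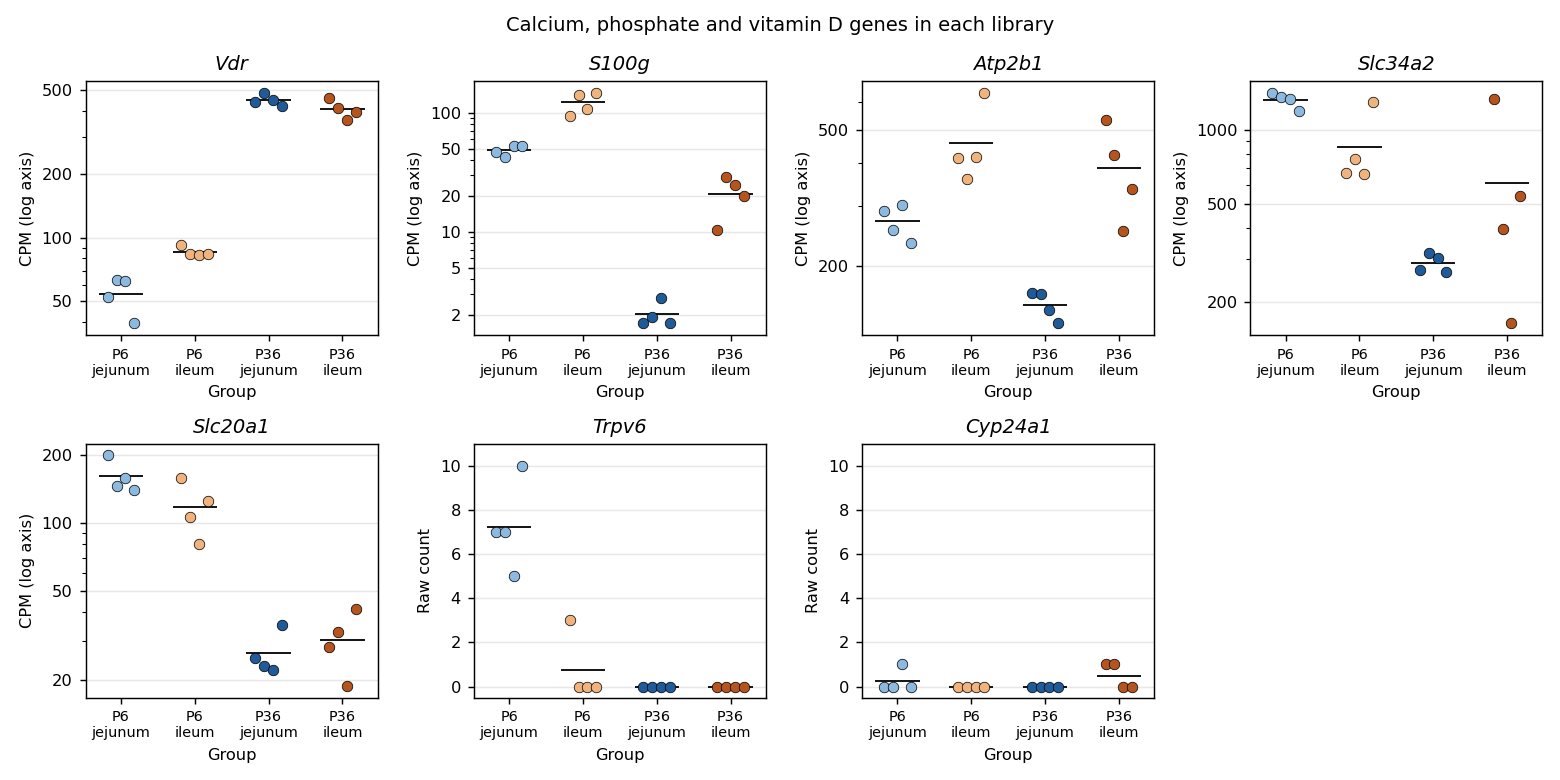
Each point is 1 library, by group (horizontal axis); the vertical axis is CPM on a log scale for the 5 tested genes and the raw count for Trpv6 and Cyp24a1, and lines are group means. Vdr lies between 39.4 and 92.9 CPM at P6 and between 361 and 486 CPM at P36, S100g goes the other way, and Slc34a2 in the P36 ileum spans 164 to 1341 CPM.

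Vdr encodes the vitamin D receptor (chromosome 15, 97854427 to 97908296, mm10). Its level in the P6 jejunum was 52.6, 63.3, 62.3 and 39.4 CPM in replicates 1 to 4, and in the P6 ileum 92.9, 83.5, 83.1 and 83.5 CPM. At P36 it was 439, 486, 449 and 419 CPM in the jejunum and 460.4, 412, 361 and 395 CPM in the ileum. Every P36 library lay above every P6 library, and the regions did not overlap at P6 but overlapped at P36. Of the 5 tested genes it was the 1 that was higher after weaning: it rose 8.24-fold in the jejunum (log2 fold change 3.04 ± 0.15 SE, adjusted p = 2.31e-10 by edgeR) and 4.75-fold in the ileum (2.25 ± 0.15, adjusted p = 5.34e-09). The ileal value was 2.21 without P6 ileum replicates 2 and 4 and 2.25 without P36 ileum replicates 1 and 3. At P6 it was 1.58-fold higher in the ileum (jejunum over ileum -0.66 ± 0.14, adjusted p = 0.00314, edgeR), in 4 of 4 mice, and without P6 ileum replicates 2 and 4 the value was -0.72 (adjusted p = 0.00533). At P36 no regional difference was called (0.14, 95% interval -0.16 to 0.44, adjusted p = 0.580), an interval that leaves room for small differences either way. The regional log2 fold change at P6 minus that at P36 was -0.80 ± 0.20 (adjusted p = 0.0221, edgeR). This call was lost without P6 jejunum replicate 1 (adjusted p = 0.0534) or P36 jejunum replicate 2, with values of -0.77 and -0.75; in the latter fit the adjusted p lay just above the threshold.

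Cyp24a1 (chromosome 2, 170482965 to 170497138), a gene that Vdr induces strongly in other settings, was at the detection limit. Its raw count was 1 in P6 jejunum replicate 3 and in P36 ileum replicates 1 and 2, and 0 in the other 13 libraries. A count of 0 in the P36 jejunum group (0 of 83830415 counts) allows up to 0.0372 CPM, and 0 in the P6 ileum group allows up to 0.0365 CPM, with 3 counts over the group as the limit and counting error only. Differences between groups were not detectable at this depth.

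Trpv6 (chromosome 6, 41620619 to 41636405), the apical calcium channel, was detected at a few counts and only at P6. Raw counts were 7, 7, 5 and 10 in the P6 jejunum and 3, 0, 0 and 0 in the P6 ileum. All 8 libraries at P36 had 0 counts, which allows up to 0.0372 CPM (jejunum) or 0.0412 CPM (ileum). The P6 jejunum group lay entirely above the P6 ileum group, with 29 against 3 counts and a ratio of CPM of 9.33 (95% counting interval 2.89 to 47.9). A two-sided exact permutation test of the CPM that treated the 8 libraries as independent gave p = 0.0286, the smallest that 4 libraries against 4 allow and not adjusted for the other tests. Both segments came from the same mice, and an exact sign-flip test over the 4 mice, with the jejunum higher in 4 of 4, gave p = 0.125, the smallest it can give. In a fit without the filter on low counts the adjusted p of edgeR was 0.0742. In the jejunum Trpv6 was higher at P6 than at P36 (29 against 0 counts, adjusted p = 0.00616 without the filter, edgeR). With a limit of 3 counts over the P36 group, the ratio was 9.15 or more. This takes the 29 counts as exact, so counting error at P6 could lower it. The level behind these ratios was low: the mean was 0.340 ± 0.0953 CPM (SD, n = 4) in the P6 jejunum.

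S100g, the cytosolic calcium carrier of enterocytes (chromosome X, 162961992 to 162964599), fell most with age among the 5 tested genes and was higher in the ileum at both ages. It measured 46.9, 42.7, 52.8 and 52.4 CPM in the P6 jejunum and 94.2, 141, 108 and 148 CPM in the P6 ileum. At P36 it measured 1.71, 1.94, 2.78 and 1.71 CPM in the jejunum and 10.4, 28.8, 24.6 and 20.0 CPM in the ileum. No 2 of the 4 groups overlapped, and the order was P6 ileum, P6 jejunum, P36 ileum, P36 jejunum. The fall with age was 23.7-fold in the jejunum (log2 fold change -4.57 ± 0.30, adjusted p = 3.46e-09, edgeR) and 5.85-fold in the ileum (-2.55 ± 0.26, adjusted p = 6.41e-07). The ileum exceeded the jejunum 2.52-fold at P6 (-1.33 ± 0.25, adjusted p = 0.000951, edgeR) and 10.2-fold at P36 (-3.35 ± 0.28, adjusted p = 1.18e-06), in 4 of 4 mice at each age. The regional difference was larger at P36, by 2.02 ± 0.37 on the log2 scale (adjusted p = 0.00239, edgeR). Without P6 ileum replicates 2 and 4 the P6 regional value was -1.08 (adjusted p = 0.00925), and without P36 ileum replicates 1 and 3 the P36 value was -3.57 (adjusted p = 6.06e-07). The ileal change with age was -2.26 and -2.31 in these fits.

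Atp2b1, the pump that exports calcium at the basolateral membrane (chromosome 10, 98915152 to 99026143), shared the regional direction of S100g at smaller size. Levels were 290.4, 255, 301 and 234 CPM in the P6 jejunum and 412, 358, 417 and 640.3 CPM in the P6 ileum. They were 167, 166, 149 and 137 CPM in the P36 jejunum and 532, 423, 253 and 335 CPM in the P36 ileum. The regions did not overlap at either age, and the P6 and P36 ileum libraries overlapped. Atp2b1 was 1.69-fold higher in the ileum at P6 (log2 fold change -0.76 ± 0.22, adjusted p = 0.0167, edgeR) and 2.50-fold higher at P36 (-1.32 ± 0.22, adjusted p = 0.000588), in 4 of 4 mice at each age. The P6 call was lost without P6 jejunum replicate 4 (-0.69, adjusted p = 0.0585), and was kept without P6 ileum replicates 2 and 4 (-0.64, adjusted p = 0.0410). The P36 value without P36 ileum replicates 1 and 3 was -1.29 (adjusted p = 0.000798). With age it fell 1.75-fold in the jejunum (-0.80 ± 0.22, adjusted p = 0.00537, edgeR). In the ileum the change was -0.24 (95% interval -0.70 to 0.21, adjusted p = 0.350), and the regional difference was not shown to change with age (0.56 ± 0.30, adjusted p = 0.288).

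Slc34a2, the apical phosphate cotransporter (chromosome 5, 53049353 to 53071663), was tight in the jejunum and variable in the ileum. The P6 jejunum held 1423, 1369, 1334 and 1197 CPM and the P36 jejunum 271, 318, 301 and 264 CPM. The P6 ileum held 671, 762, 665 and 1304 CPM and the P36 ileum 1341, 394, 164 and 541 CPM. The jejunum groups did not overlap, with a fall of 4.62-fold (log2 fold change -2.21 ± 0.44, adjusted p = 0.000594, edgeR). Between the highest and lowest P36 ileum library the level differed 8.20-fold, against 1.20-fold in the P36 jejunum and 1.96-fold in the P6 ileum. The high value in the P6 ileum came from replicate 4 and the extremes of the P36 ileum from replicates 1 and 3, the libraries named above as standing apart. In the P36 ileum, the library with the most Slc34a2 also had the most epithelial marker RNA, and the one with the least had the least. The P6 ileum went the other way: replicate 4 had the most Slc34a2 and the lowest epithelial marker sum (5082 CPM, against 5998 to 6444 CPM). The part of epithelial marker RNA in these values was not tested.

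No other contrast of Slc34a2 was called by edgeR with all libraries, although DESeq2 called the regional difference at P36 (adjusted p = 0.0475) and the region-by-age difference (adjusted p = 0.0305). The regional log2 fold change was 0.65 (95% interval -0.26 to 1.55, adjusted p = 0.288) at P6, with the jejunum higher in 3 of 4 mice, and -1.08 (-1.99 to -0.17, adjusted p = 0.103) at P36, with the ileum higher in 3 of 4 mice. The ileal change with age was -0.48 (-1.38 to 0.42, adjusted p = 0.353). The difference between the regional values was 1.73 ± 0.60 (adjusted p = 0.0926, edgeR). Several of these moved across the threshold with single libraries. Without P36 ileum replicate 1 the fall in the ileum was called (-1.21, adjusted p = 0.00561), whereas the P36 regional difference was -0.35 (adjusted p = 0.491) and the region-by-age difference 1.00 (adjusted p = 0.162). Without P36 ileum replicate 3 both of these were called (-1.40, adjusted p = 0.0122, and 2.05, adjusted p = 0.0124). The latter was also called without P6 ileum replicate 4 (2.01, adjusted p = 0.0398). With P36 ileum replicates 1 and 3 both left out, the P36 regional value was -0.70 (adjusted p = 0.0748), the ileal change with age -0.85 (adjusted p = 0.0139), the P6 regional value 0.66 (adjusted p = 0.0251) and the region-by-age difference 1.36 (adjusted p = 0.0160). With P6 ileum replicates 2 and 4 left out, the P6 regional value was 0.97 (adjusted p = 0.20), the ileal change with age -0.13 (adjusted p = 0.836) and the region-by-age difference 2.04 (adjusted p = 0.0716).

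Slc20a1, the second phosphate cotransporter (chromosome 2, 129198773 to 129211612), fell with age in both regions. At P6 it measured 199, 146, 158 and 139 CPM in the jejunum and 157, 106, 80.3 and 124 CPM in the ileum. At P36 it measured 25.2, 23.3, 22.1 and 35.1 CPM in the jejunum and 28.1, 32.8, 18.9 and 41.5 CPM in the ileum. The ages did not overlap in either region, and the regions overlapped at both ages. The fall was 6.08-fold in the jejunum (log2 fold change -2.60 ± 0.25, adjusted p = 3.56e-07, edgeR) and 3.87-fold in the ileum (-1.95 ± 0.25, adjusted p = 6.57e-06). The ileal value was -1.98 without P6 ileum replicates 2 and 4 and -1.65 without P36 ileum replicates 1 and 3. Within mice at P6 the jejunum was higher in 4 of 4, by 0.17 to 0.98 on the log2 scale. The regional difference at P6 was not called without the mouse in the model (0.46 ± 0.24, adjusted p = 0.176), and was called with the mouse as a block (0.48 ± 0.16, adjusted p = 0.0497, edgeR). At P36 it was -0.20 (95% interval -0.71 to 0.32, adjusted p = 0.658), and the region-by-age difference was 0.65 ± 0.34 (adjusted p = 0.269, edgeR). In bulk libraries, fewer cells that express a gene and less of its RNA per cell cannot be told apart.

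**Figure D2:**
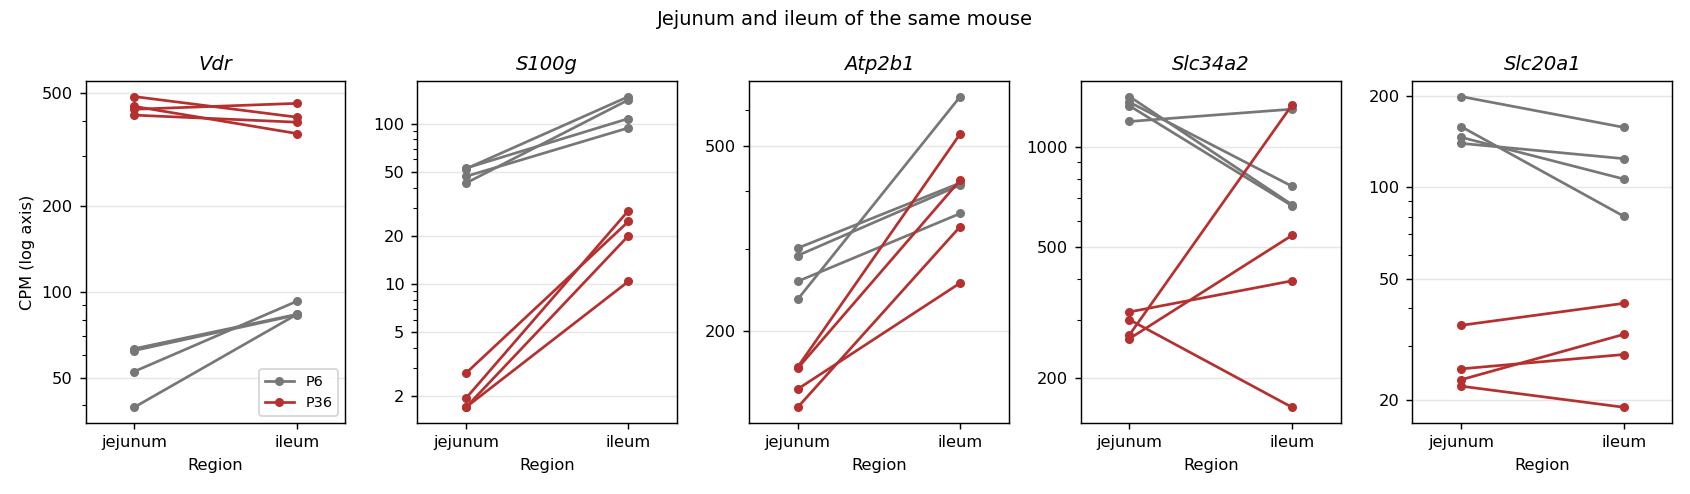
Lines join the jejunum and ileum of 1 mouse (grey P6, red P36; horizontal axis, region); the vertical axis is CPM on a log scale. S100g and Atp2b1 are higher in the ileum in all 8 mice and Vdr in the 4 mice at P6, and Slc34a2 takes both directions at each age.

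**Figure D3:**
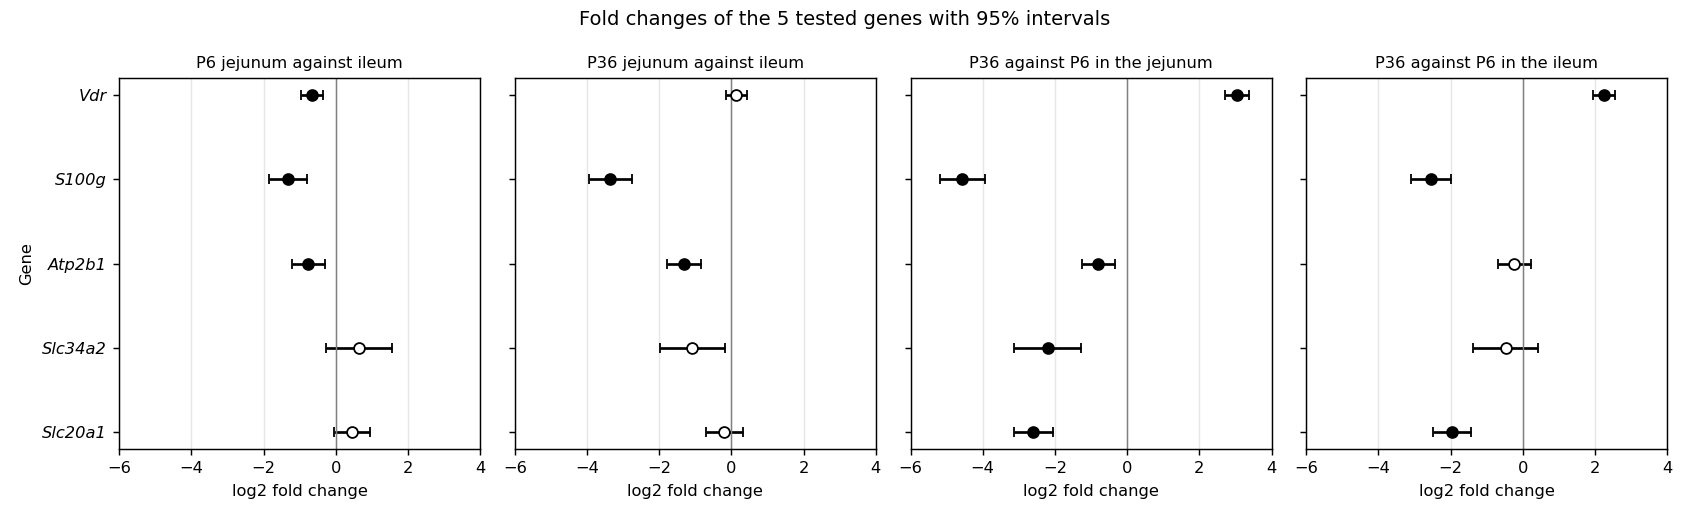
Log2 fold changes (horizontal axis) of the 5 tested genes (vertical axis) in the 4 comparisons, jejunum over ileum or P36 over P6; bars are 95% intervals and filled points were called at an adjusted p below 0.05. S100g has the largest fall in the jejunum, -4.57, and Vdr is the 1 gene that rises, by 3.04 there.

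No test between the sexes was run within groups of 2 females and 2 males. Over the 5 tested genes and 4 groups, the sexes did not overlap in 7 of 20 cases, 5 with females and 2 with males higher, against 30.0% of cases over all tested genes. In the P36 ileum the female means were higher for Slc34a2 (868 against 352 CPM) and Atp2b1 (477 against 294 CPM), where replicate 1 was a female library and replicate 3 a male library. Sex as a covariate changed no call of the 5 genes.

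Per exon length (RPKM, CPM per 1000 bases of exon), the order of the genes changed with age. In the P6 jejunum Slc34a2 stood first at 319 ± 23.1 RPKM (SD, n = 4), followed by S100g at 101 ± 10.1, Slc20a1 at 38.6 ± 6.40, Atp2b1 at 37.9 ± 4.38 and Vdr at 12.5 ± 2.55 RPKM. Only Slc20a1 and Atp2b1 overlapped as neighbours among these. In the P36 jejunum Vdr stood first at 103 ± 6.53 RPKM, above Slc34a2 at 69.1 ± 6.07, Atp2b1 at 21.7 ± 2.03, Slc20a1 at 6.35 ± 1.42 and S100g at 4.24 ± 1.07 RPKM, and Slc20a1 and S100g overlapped.

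The ileum had another order. At P6 S100g (256 ± 53.7 RPKM) and Slc34a2 (204 ± 73.2 RPKM) overlapped at the top, above Atp2b1 at 64.1 ± 17.6, Slc20a1 at 28.1 ± 7.78 and Vdr at 19.7 ± 1.09 RPKM, the last 2 of which also overlapped. At P36 Slc34a2 (146 ± 123 RPKM) and Vdr (93.5 ± 9.51 RPKM) overlapped, as did Atp2b1 (54.1 ± 16.8 RPKM) and S100g (43.6 ± 16.4 RPKM), with Slc20a1 last at 7.28 ± 2.26 RPKM. The ratio of S100g to Vdr per length was 8.49 ± 2.53 at P6 and 0.0412 ± 0.0100 at P36 in the jejunum. In the ileum it was 13.1 ± 3.19 at P6 and 0.479 ± 0.199 at P36.

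**Figure D4:**
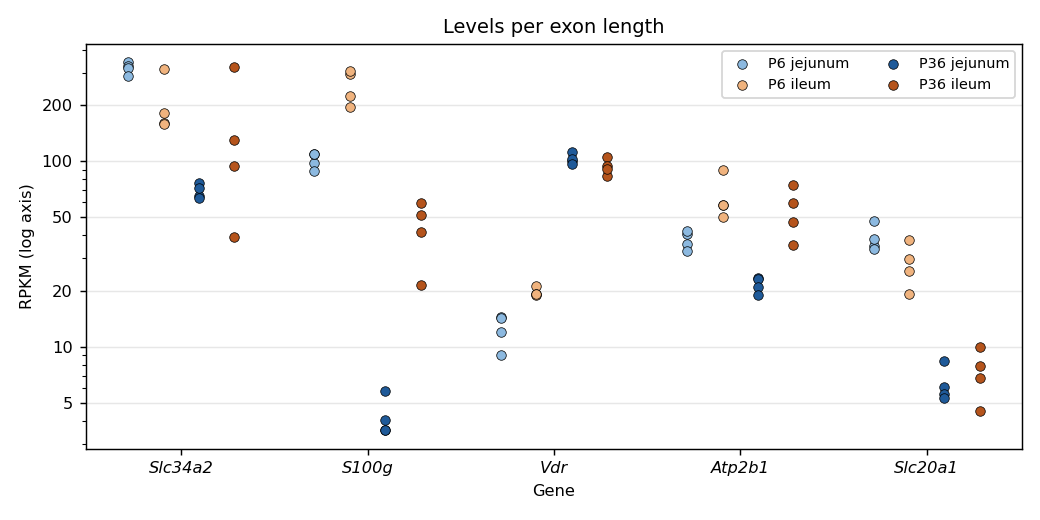
Level per exon length (RPKM, log vertical axis) of the 5 tested genes (horizontal axis) in the 16 libraries, coloured by group. Vdr is last of the 5 in the P6 jejunum, at 12.5 RPKM on average, and first in the P36 jejunum, at 103 RPKM.

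The sodium-phosphate cotransporters Slc34a1, Slc34a2, Slc34a3, Slc20a1 and Slc20a2 can be set against each other on the same scale. Slc34a2 held 78.9 ± 1.23% (SD, n = 4) of their summed RPKM in the P6 jejunum, 78.6 ± 7.22% in the P6 ileum, 83.6 ± 3.06% in the P36 jejunum, then 86.8 ± 7.76% in the P36 ileum. Slc20a1 held 9.52 ± 1.14%, 11.4 ± 3.86%, 7.76 ± 2.05% and 6.22 ± 2.95% in the same order. Slc34a3, best known from the kidney, held 8.75 ± 1.93%, 6.63 ± 3.89%, 2.60 ± 0.647% and 0.225 ± 0.169%, again in that order.

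The tested genes whose log2 CPM followed each member most closely over the 16 libraries were, for Vdr, Fam3b, Mpi and Ocm (Pearson's r 0.991, 0.988 and 0.988). For S100g they were Rcan3, Bex4 and Hao2 (0.988, 0.987 and 0.983), and for Slc20a1 Cul4a, Tctn3 and Usp54 (0.976, 0.975 and 0.974). For Atp2b1 they were Rai14, Abcg2 and Appbp2 (0.951, 0.934 and 0.933), and for Slc34a2 Xk, Plxna2 and Rbfox2 (0.953, 0.942 and 0.935). Libraries of a group and of a mouse are not independent points, so these values are descriptions only. Among the members themselves, r of Vdr was -0.95 with Slc20a1, -0.78 with S100g, -0.75 with Slc34a2 and -0.34 with Atp2b1. It was 0.81 between Slc34a2 and Slc20a1, 0.77 between S100g and Atp2b1 and 0.76 between S100g and Slc20a1.

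The other genes of the pathway were taken from 6 hand-made lists, with 55 genes that are not members, of which 41 passed the filter. Of these 41, 9 were higher and 11 lower at P36 in the jejunum (24.7% and 26.9% of all genes), and 8 were higher and 15 lower at P36 in the ileum (25.5% and 30.1%). Between the regions, 5 were called toward the jejunum and 8 toward the ileum at P6 (11.1% and 14.8% of all genes), and 8 and 2 at P36 (8.30% and 7.80%). Some of these calls were lost when single libraries were left out. At P6 this held for Cubn in 14, Nr3c1 in 12, Atp2b4 and Slc20a2 in 4 each and Prlr in 3 of 16 fits. At P36 it held for Alpi and Slc34a1 in 6 each. The region-by-age difference was called for 5 (8.69% of all genes): Cldn2, Slc8a1, Prlr, Slc20a2 and Akp3. Leaving out single libraries ended the call of Akp3 in 12 and that of Slc20a2 in 7 of 16 fits. The medians of the log2 fold changes of the 41 were 0.03 and -0.03 between the regions at P6 and P36 and -0.23 and -0.18 with age in the jejunum and ileum.

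Among vitamin D metabolism and receptor partners, 13 of 17 genes were tested. Neither Rxra nor Rxrb, the retinoid X receptors that pair with Vdr, was called in any comparison with all libraries. Without P6 ileum replicate 4 both were called with age in the jejunum, at log2 fold changes of 0.27 for Rxra (adjusted p = 0.0407) and -0.29 for Rxrb (adjusted p = 0.00955), and Rxra also in the ileum (0.34, adjusted p = 0.0236). Rxra measured 132 ± 6.88 CPM at P6 and 160 ± 8.63 CPM at P36 in the jejunum (log2 fold change 0.28), beside the 8.24-fold rise of Vdr. With age, 2 genes of this list rose and 2 fell in each region, of 13. Over all tested genes, 24.7% rose and 26.9% fell in the jejunum, and 25.5% rose and 30.1% fell in the ileum. Cyp27a1, a mitochondrial sterol hydroxylase that can 25-hydroxylate vitamin D, rose from 3.19 ± 0.893 to 77.8 ± 16.0 CPM in the jejunum (4.61, adjusted p = 4.46e-08, edgeR) and by 3.25 on the log2 scale in the ileum (adjusted p = 1.66e-06). The coactivator gene Ncoa3 rose by 0.72 and 1.06. Lrp2 and Cubn, which encode the endocytic receptors megalin and cubilin, fell: Lrp2 from 29.9 ± 7.70 to 0.220 ± 0.109 CPM in the jejunum (-7.03) and by 8.93 in the ileum, and Cubn by 1.77 and 2.17. Cubn in the P36 ileum ranged from 64.0 to 1019 CPM, highest in replicate 1, without which the ileal value was -2.78 (adjusted p = 0.000294). Cyp27b1, the activating hydroxylase, was below the filter, with between 5 and 14 counts per group.

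Of the other transcellular calcium genes, 6 of 11 were tested, and 2 rose and 2 fell with age in the jejunum (24.7% and 26.9% of all genes), and 2 rose and 4 fell in the ileum (25.5% and 30.1%). The 2 that rose in both were S100a10 and Anxa2, a protein pair known to bind the channel's family at the membrane (log2 fold changes of 1.65 and 1.56 in the jejunum and 1.6 and 1.72 in the ileum). Rab11a, which recycles vesicles to the apical membrane, fell by 1.55 in the jejunum and by 1.68 in the ileum (adjusted p = 1.26e-05 and 5.52e-06, edgeR). Epb4.1, for a protein of the membrane skeleton, fell by 0.51 and 0.33. Slc8a1, the sodium-calcium exchanger, at P6 was 3.33 ± 1.03 CPM in ileum and 1.29 ± 0.262 CPM in jejunum (-1.37, adjusted p = 0.00474, edgeR). Atp2b4, another calcium pump, was also called higher in the P6 ileum (-2.45, adjusted p = 0.0250), but its libraries overlapped. Its level was 13.6 CPM in P6 ileum replicate 2, the library with the highest smooth muscle and fibroblast marker sum, and 1.14, 0.813 and 3.14 CPM in the other 3. Without that library the regional value was -0.99 (adjusted p = 0.217) and the ileal change with age -1.47 (adjusted p = 0.0450), against -2.93 (adjusted p = 0.00490) with it. The kidney channel gene Trpv5 had no count in any library, and Calb1 had at most 3 per group.

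The claudins of the paracellular calcium route moved apart. Cldn2, which forms cation pores, had 703 ± 30.4 CPM in jejunum and 656 ± 159 CPM in ileum at P6, and 112 ± 6.29 and 487 ± 79.1 CPM at P36. Its fall in the jejunum was -2.65 (adjusted p = 4.25e-09, edgeR), its ileal excess at P36 -2.12 (adjusted p = 8.04e-07), and its region-by-age difference 2.22 (adjusted p = 2.36e-05), the same sign and near the size of the 2.02 of S100g. Cldn15, another cation pore, rose from 73.2 ± 7.07 to 776 ± 50.4 CPM in the jejunum (3.41, adjusted p = 8.41e-10) and from 31.9 ± 9.38 to 384 ± 33.7 CPM in the ileum (3.59, adjusted p = 6.54e-10), and was higher in the jejunum at both ages. Cldn12 was not called in any comparison with all libraries, and was at P6 without P6 ileum replicate 2 (-0.40, adjusted p = 0.0482).

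For phosphate transport and release, 11 of 12 other genes were tested. Slc34a3 fell from 72.1 ± 13.2 to 4.36 ± 0.878 CPM in the jejunum (-4.05, adjusted p = 2.24e-05, edgeR) and by 5.33 in the ileum (adjusted p = 4.51e-06). Slc17a4 fell by 1.87 and 1.68, and Alpi, an intestinal alkaline phosphatase gene, by 2.27 and 3.30. Alpi in the P36 ileum ranged from 43.9 to 550.2 CPM, highest in replicate 1, without which the ileal value was -4.10 (adjusted p = 2.06e-06). Slc20a2, the close relative of Slc20a1, fell by 1.26 in the jejunum (adjusted p = 1.87e-05), from 42.0 ± 3.27 to 17.6 ± 2.39 CPM, and was not called in the ileum except without P6 ileum replicate 4 (-0.52, adjusted p = 0.00100). Slc34a1 rose in both regions (3.45 and 4.32), but at 3 and 8 counts per group at P6 and 37 and 156 at P36, and the jejunal value was 6.19 without P6 jejunum replicate 4. Slc9a3, the apical sodium-proton exchanger, was 4.76 higher in the jejunum at P6 and 3.51 at P36 (log2 scale, adjusted p = 7.79e-06 and 0.000139), at 29.4 CPM in P36 ileum replicate 1 and between 4.41 and 5.78 CPM in the other P36 ileum libraries. Without that replicate the P36 value was 4.65 (adjusted p = 7.83e-09).

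Hormone receptor genes and further genes known to be induced through Vdr went in both directions. Of 5 tested receptor genes, Ghr, for growth hormone, fell from 244 ± 8.02 to 5.35 ± 0.819 CPM in the jejunum (-5.51, adjusted p = 9.39e-11, edgeR) and from 341 ± 112 to 7.19 ± 1.77 CPM in the ileum (-5.56). Nr3c1, the glucocorticoid receptor gene, rose by 0.97 and 0.44, the latter no longer called without P36 ileum replicates 1 and 3 (0.36, adjusted p = 0.0935). Esr1, for an oestrogen receptor, was higher in the ileum at P6 (4.01 ± 2.04 against 0.199 ± 0.334 CPM, log2 fold change -4.25, adjusted p = 0.00148) and fell with age in the ileum (-4.51, adjusted p = 0.000436). The P6 value was -6.70 without P6 jejunum replicate 1. Fgfr1, for a receptor of fibroblast growth factors, was also higher in the ileum at P6 (1.96 ± 1.20 against 0.219 ± 0.118 CPM, -3.12, adjusted p = 0.00442). It fell with age in the ileum (-2.11, adjusted p = 0.0154), a call lost without P6 ileum replicate 2 (-1.6, adjusted p = 0.0596) or P36 ileum replicate 3 (-1.78, adjusted p = 0.0519). Prlr, for prolactin, was higher in the ileum at P6 (-0.84, adjusted p = 0.0235) and fell with age in the ileum (-1.06, adjusted p = 0.00240). The P6 call was lost without P6 jejunum replicate 2 or 4 or P6 ileum replicate 4 (adjusted p = 0.0567, 0.0697 and 0.0609). Among the genes known to respond to Vdr, Cyp3a11, a xenobiotic and bile acid hydroxylase of a family with near-identical copies, rose from 0.914 ± 0.279 to 224 ± 101 CPM in the jejunum (7.94, adjusted p = 1.30e-06). Slc37a2, a sugar-phosphate exchanger, fell from 51.5 ± 14.2 to 0.553 ± 0.319 CPM there (-6.54, adjusted p = 9.89e-10), and Slc30a10, a manganese exporter, was not called in any comparison with all libraries, and was with age in the jejunum without P36 ileum replicate 1 or 3 (-0.94 in both fits, adjusted p = 0.0167 and 0.0149). In the jejunum libraries in which Vdr rose with age, S100g, Slc37a2 and Cldn2 (-2.65) fell and Cyp3a11 rose. Cldn2 and Cldn12 are also on the list of genes known to be induced through Vdr. Cldn12 (0.16) and Slc30a10 (-0.94) were not called there with all libraries. Trpv6 had 29 counts at P6 and 0 at P36. Cyp24a1 had 1 and 0, too few to show a change.

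**Figure D5:**
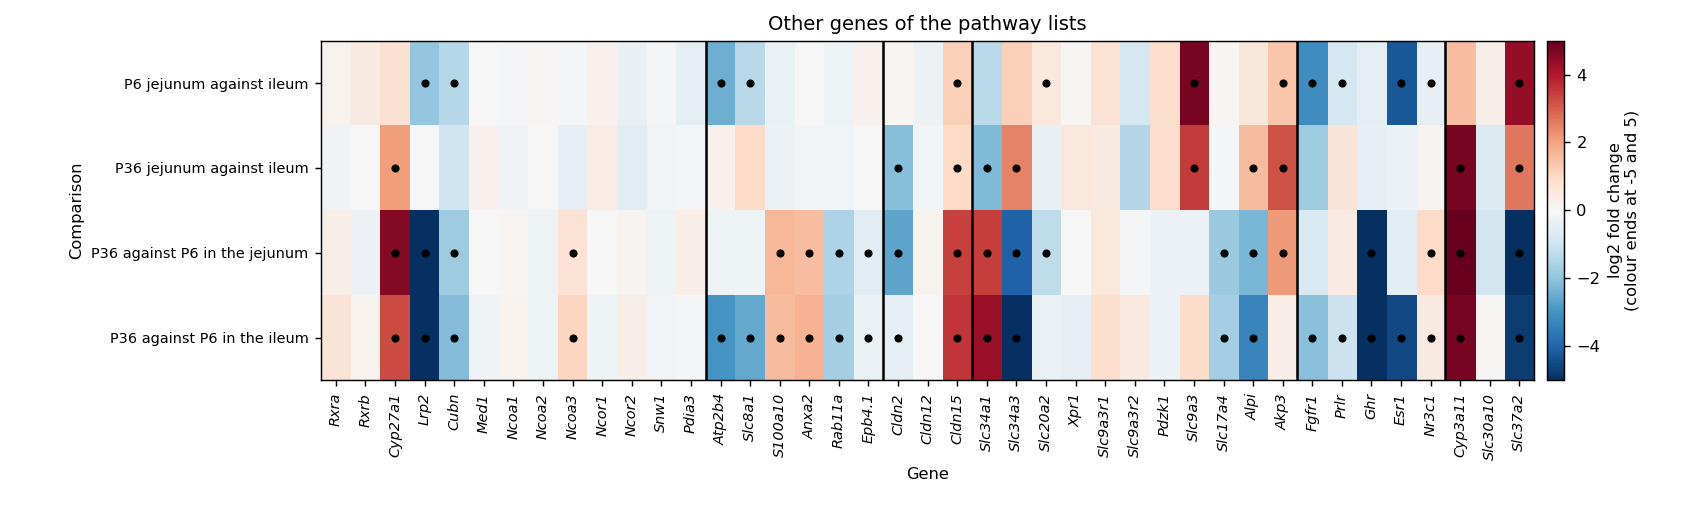
Log2 fold changes (colour) of the 41 tested genes that are not members (horizontal axis, grouped by list) in the 4 comparisons (vertical axis), red higher in the jejunum or at P36; black dots mark genes called at an adjusted p below 0.05. The retinoid receptors and coregulators at the left are pale. Cyp27a1, Lrp2, Cldn15, Slc34a1, Slc34a3, Ghr, Cyp3a11 and Slc37a2, and Esr1 in the ileum, are among the strongest colours with age.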

How the data were processed

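Epithelial cells of the jejunum and ileum of 4 P6 and 4 P36 mice were sequenced. Per the labels and the study's methods, the authors made stranded mRNA libraries, sequenced them on a NovaSeq, used Trimmomatic 0.38 for trimming, STAR for alignment to mm10 and featureCounts (Subread 1.6.3, reverse strand, UCSC genes) for counts of read pairs on exons. The STAR version and the segment length differ between the sources. The deposited values are raw counts, 1 file per library, of 24421 genes, and default counting leaves out reads that map to several genes.

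Counts were filtered with edgeR's filterByExpr, scaled by TMM and tested in R 4.3.3 with the quasi-likelihood test of edgeR 4.0.16, with 4 group means over 16 libraries, no block, and Benjamini-Hochberg adjustment over 13429 genes. The standard error is the log2 fold change divided by the square root of F. Log2 CPM used a prior count of 2. RPKM used the deposited exon lengths. The fit was tested on simulated counts. No pair of replicates was a copy: the chi-square per gene between replicates was 13.2 to 272. The replicate numbers pair samples because both segments came from 1 mouse. Deviations from the group mean correlated within mice at 0.157 to 0.391 for P6 and 0.240 to 0.347 for P36, against means of -0.106 and -0.101 between mice. Deviations from a group mean sum to 0, which ties the means between mice to the values within mice, so they are no separate evidence. Alternatives were DESeq2 1.42.0, other scalings, filters and sample sets, sex, a robust prior, the mouse as a block and each library left out. A GC correction, the fits without 2 ileum libraries at once, the left-out fits of pathway genes and the sign-flip test were chosen after seeing the data.

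The members and lists were chosen with earlier results of these data known. Named pathway genes are up to 5 called per list and comparison with the smallest adjusted p, with those that complete a count or were singled out after their values were seen (Rxra, Rxrb, Cldn12, Slc30a10, Trpv5, Calb1, Cyp27b1). Some genes of the calcium transport list are not reported here.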

Additional observations from a re-analysis of the deposited data

Results flagged for a closer look

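For 2 members, 1 of the 4 libraries of a group lay far from the other 3; chance does this in about 1 in 20 groups. In the P6 ileum, replicate 1 had 92.9 CPM of Vdr against 83.1 to 83.5 CPM in the others, a gap that is large only because the other 3 nearly coincide. In the same group, replicate 4 had 1304 CPM of Slc34a2 against 665 to 762 CPM. That library also correlated least with its group, and its deviations from the other 3 fell with the GC content of genes (Spearman's rho -0.754 across genes, which are not independent replicates). With the GC correction the P6 regional log2 fold change of Slc34a2 was 0.654 (adjusted p = 0.229, edgeR), against 0.646 without it. That correction was centred on the mean of each group, so it cannot show the part of GC content in a difference between groups. The part of either feature in the Slc34a2 level of replicate 4 was not tested.

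The regional difference changed with age for 2 members by the test of the difference itself. For S100g the regional log2 fold change at P6 minus that at P36 was 2.02, with the ileum higher in 4 of 4 mice at each age and by more at P36. For Vdr it was -0.80, with the ileum higher in all 4 mice at P6, whereas at P36 this held for 1 of 4.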

How the results depend on the processing

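No member reversed its direction in any comparison under any alternative run. Of the 5 members tested, 3 were called between the P6 regions and 0 with the fold change minimum of the study, and 2 and 1 between the P36 regions. Leaving out each of the 16 libraries in turn gave 2 to 3 calls between the P6 regions, 2 to 3 between the P36 regions, 5 to 5 with age in the jejunum, 3 to 4 with age in the ileum and 1 to 3 for the region-by-age difference. With the mouse as a replicate block the regional difference of Slc20a1 at P6 was called (0.48, adjusted p = 0.0497), and no other call of a member changed. With the GC correction and the block together it was 0.48 (adjusted p = 0.0129), and the region-by-age difference of Slc20a1 was called as well (0.65, adjusted p = 0.0298). DESeq2 called Slc34a2 between the P36 regions (-1.09, adjusted p = 0.0475) and for the region-by-age difference (1.75, adjusted p = 0.0305). The cause of these changes was not tested.

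Scaling by library totals moved the median log2 fold change of all genes by -0.29 between the P6 regions and by -0.14 between the P36 regions. The calls of S100g, Slc20a1 and Vdr with age were kept under every alternative other than the fold change minimum, and so were the regional calls of S100g: between -1.62 and -1.08 at P6, and between -3.58 and -3.15 at P36. Of 1680 recomputed counts of pathway list genes, 1515 stayed within 1.5 times. Depth limits Trpv6 and Cyp24a1, whose counts per library were at most 10 and 1.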
